A study of Mus musculus with 27 samples.

Results

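The genes described here are 10 genes of the neuronal cytoskeleton, growth cone and neuronal membrane, namely Stmn2, Gap43, Tubb3, Dcx, Nefl, Nefm, Elavl3, Elavl4, Gpm6a and Rtn1. They were chosen by symbol, and all 10 were found among the 19937 mouse genes measured, each through 1 probe set. RNA levels were read on 27 Affymetrix arrays, 1 array per sample. Cultured cells gave 12 arrays: 10 of lines immortalized from neural stem cells, of which 6 carried mutant p53 (lines 3, 28, 31, 59, 95 and 116) and 4 were p53 wild type (WT; lines 119, 120, 123 and 331), and 2 of normal neural stem cells (NSCs), labelled WT. Tissue gave 15 arrays: 12 of tumors, 3 per line for lines 1, 31, 59 and 123, and 3 of normal subcutaneous tissue (SubQ), labelled WT. Tumors of lines 31 and 59 were p53 mutant, and those of lines 1 and 123 were WT. Every sample, cultures included, carries the same host background in its label, the immunodeficient strain CB17/ICR-Prkdcscid/IcrCrl (SCID). Line 1 has no culture array, each line was measured once in culture, and the 3 tumors of a line share that line. The sources used here do not state how the lines were immortalized, whether a line is 1 clone or whether samples came from separate animals, so the p-values measure only the spread between these samples.

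A growing neuron builds its processes from microtubules and intermediate filaments. Tubb3 encodes class III beta-tubulin of neuronal microtubules, Stmn2 a stathmin that regulates microtubules in growth cones, and Dcx doublecortin, the microtubule-binding protein of migrating young neurons. Nefl and Nefm encode the light and medium neurofilament subunits, which co-assemble in axons. Gap43 encodes a growth-associated protein of the growth cone membrane, and Gpm6a a membrane glycoprotein involved in the growth of neuronal processes. Elavl3 and Elavl4 encode neuronal RNA-binding proteins of the Hu family, and Rtn1 a reticulon of the endoplasmic reticulum. Neural stem cells can produce neurons, and cultures of them often hold cells that have begun to differentiate.

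All levels are log2 values as the authors deposited them, so a difference of 1 is a 2-fold difference. The files hold no detection call. The 95th percentile of 1194 odorant and vomeronasal receptor genes on the same array was therefore used as a bound, and a level at or under it is described as not shown above background. On the cell arrays that bound ran from 6.64 to 6.89 in the lines and from 6.72 to 6.91 in the NSCs. On the tissue arrays it lay between 4.99 and 5.44 in the tumors and between 6.30 and 6.49 in SubQ. Of the 270 member levels, 166 were at or under it. Cell and tissue arrays share no equal value in any of 180 pairs, so their deposited levels are not set against each other here. The 3 SubQ arrays stand apart from the tumors, with a standard deviation over genes of 0.87 to 1.02, against 1.63 to 1.79 in tumors, and correlations across genes of 0.66 to 0.72 among themselves, against 0.94 to 0.98 among tumors.

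The first comparison set the 10 immortalized lines against the 2 normal NSCs. Most of the genes were lower in the lines: Gpm6a, Rtn1, Elavl4, Nefl and Nefm were above the receptor bound in both NSC cultures and in none of the 10 lines. Gap43 was lower in every line but still above the bound in all of them. Stmn2 and Tubb3 were higher in every line than in either NSC culture, although neither difference passed the test. By limma, 8 of the 10 genes were called lower and 0 higher at an adjusted p under 0.05, where 15.0% of all genes were called, 8.22% lower and 6.79% higher. That count over all genes was 2992, and it became 1416 without NSC replicate 1 and 1402 without NSC replicate 2, while 7 to 9 of the 10 genes were called with any 1 array left out. Groups did not overlap for any of the 10 genes, 2 higher and 8 lower in the lines, against 21.3% of all genes, 10.1% higher and 11.1% lower. The median difference over the 10 genes was -1.89, against -0.01 over all genes. In such bulk RNA, fewer cells of a type and less RNA per cell cannot be told apart.

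**Figure D1:**
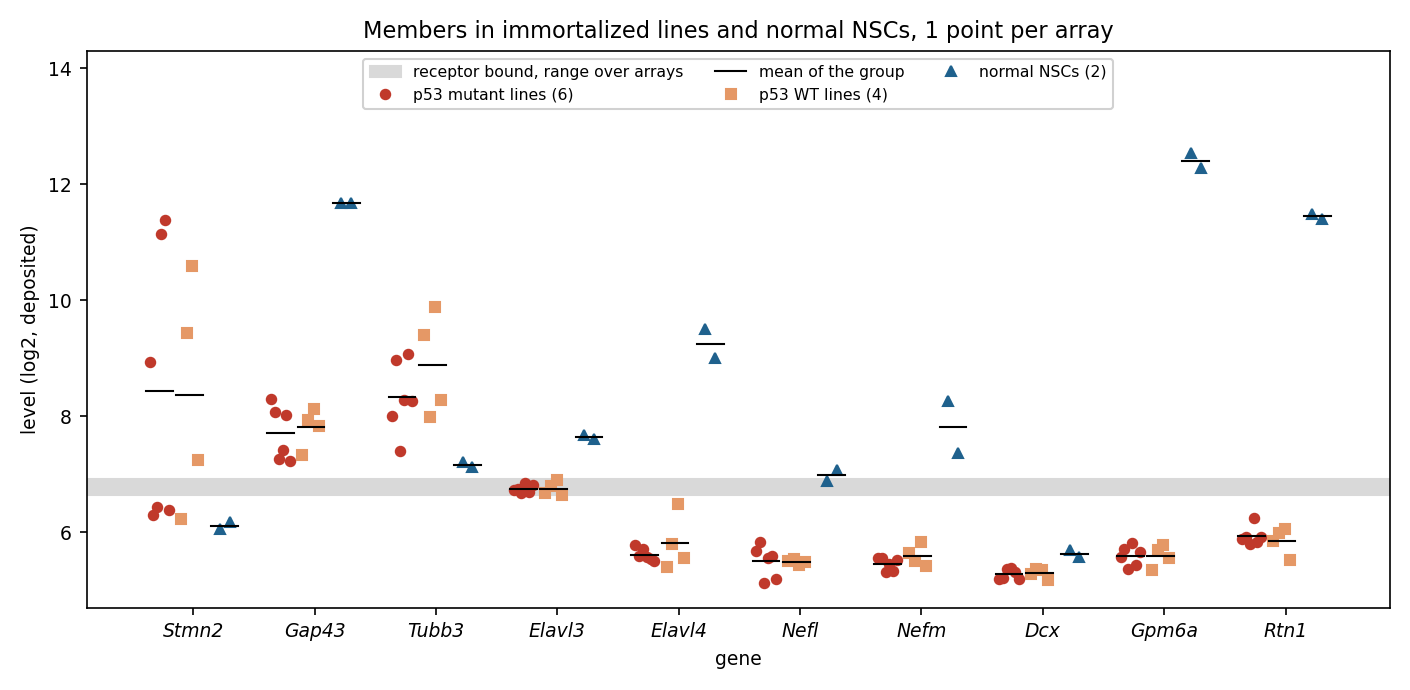
Levels (log2, vertical axis) of the 10 genes on each cell array, with p53 mutant lines, p53 WT lines and normal NSCs from left to right within a gene; short lines are group means and the grey band is the range of the receptor bound. Gpm6a lies between 5.36 and 5.82 in the lines and at 12.53 and 12.27 in the NSCs, and Stmn2 spans 6.23 to 11.38 in the lines.

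The membrane proteins showed the widest gaps. Gpm6a ranged over the lines from 5.36 to 5.82, with a median of 5.61, and was 12.53 and 12.27 in the NSC cultures. All 10 lines were thus close together and not shown above background, while both NSC cultures were high. The fitted difference was -6.81 ± 0.13 (SE; limma, adjusted p = 2.38e-12), and with the lines set at their bound Gpm6a was at least 51.0-fold lower in the lines. Rtn1 ranged over the lines from 5.52 to 6.25, with a median of 5.91, and was 11.49 and 11.40 in the NSCs. Its difference was -5.54 ± 0.14 (adjusted p = 1.18e-11), at least 26.2-fold at the bound. Gap43, which kept a level above the bound in all lines, ranged from 7.22 to 8.29 in them, with a median of 7.89, and was 11.68 and 11.67 in the NSCs. That was a difference of -3.92 ± 0.27 (adjusted p = 2.70e-07).

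Both neuronal Hu genes were called lower. Elavl4 ranged over the lines from 5.40 to 6.48, with a median of 5.58, and was 9.50 and 9.005 in the NSCs, a difference of -3.56 ± 0.22 (adjusted p = 9.87e-08) and at least 5.74-fold at the bound. Its highest line was line 123, at 6.48, still under the bound of that array. Elavl3 ranged over the lines from 6.64 to 6.90, with a median of 6.74, and was 7.68 and 7.61 in the NSCs. Its 10 lines lay within a narrow strip at the bound, with 7 of them just above it, and the difference was -0.89 ± 0.08 (adjusted p = 5.96e-06).

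Among the filament genes, Nefm ranged over the lines from 5.32 to 5.84, with a median of 5.51, and was 8.26 and 7.37 in the NSCs. Nefl ranged from 5.13 to 5.84, with a median of 5.53, and was 6.88 and 7.08 in the NSCs. Neither subunit was shown above background in any line. The differences were -2.30 ± 0.18 for Nefm (adjusted p = 1.10e-06) and -1.48 ± 0.15 for Nefl (adjusted p = 1.51e-05). Because the NSC levels of Nefl lay barely above the bound, its difference is at least 1.19-fold, and that of Nefm at least 2.11-fold.

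Of the microtubule genes, Dcx was 5.19 to 5.38 in the lines, with a median of 5.30, and 5.70 and 5.57 in the NSCs. All 12 arrays were at or under the bound, so no fold is given for Dcx, although the difference of -0.35 ± 0.08 passed the test (adjusted p = 0.0118). That call was lost without NSC replicate 1 (-0.28, adjusted p = 0.197), without the p53 mutant lines (-0.34, adjusted p = 0.1197) and with the titles' replicate numbers as a block (-0.44, adjusted p = 0.0852). Adjusted p ranged from 0.00907 to 0.197 over the 20 alternatives tried. Tubb3 ranged over the lines from 7.41 to 9.89, with a median of 8.28, and was 7.22 and 7.12 in the NSCs. Every line was above both NSC cultures, with line 123 at 9.89 and line 119 at 9.39 the highest. The difference of 1.39 ± 0.49 did not pass (adjusted p = 0.0825). It passed with line 31 left out (1.51, adjusted p = 0.0390) and with that block (1.31, adjusted p = 0.0428), and adjusted p ranged from 0.0390 to 0.367 over 21 alternatives.

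Stmn2 divided the lines more than any other of the 10 genes. It was 11.38 in line 95, 11.13 in line 59, 10.59 in line 123, 9.44 in line 120, 8.93 in line 3 and 7.24 in line 331. Lines 31, 116, 28 and 119 had 6.44, 6.38, 6.30 and 6.23, against 6.05 and 6.18 in the NSCs. The first 6 lines were above the bound, while the other 4 lines and both NSC cultures were not. With a standard deviation of 2.13 among the lines, the difference of 2.29 ± 1.38 did not pass the test (adjusted p = 0.345). Each line has 1 array, so neighbours in this order cannot be set against a spread.

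Promoter sequences of 4 of these genes are shown, chosen after their values were seen: Gpm6a and Rtn1, with the widest differences between lines and NSCs, Elavl3, which was lower in the lines with levels at the bound, and Tubb3, which was not called. RefSeq's table, on assembly GRCm38.p6, held promoters of 6 of the 10 genes, each running from 250 bases before to 50 bases after a transcription start, and those of Elavl4 and Dcx are not printed. They were searched on both strands for CAGCACC, which is part of the RE1 element bound by the repressor REST, for the E-box CAGCTG, bound by neurogenic basic helix-loop-helix factors, for the GC box GGGCGG and for TATAAA. Of all 32851 promoters in the table, 7.14%, 16.3%, 35.7% and 13.6% held them, in that order. Capitals mark the matches, on either strand.
Gpm6a, chr8:54779184-54779483, plus strand: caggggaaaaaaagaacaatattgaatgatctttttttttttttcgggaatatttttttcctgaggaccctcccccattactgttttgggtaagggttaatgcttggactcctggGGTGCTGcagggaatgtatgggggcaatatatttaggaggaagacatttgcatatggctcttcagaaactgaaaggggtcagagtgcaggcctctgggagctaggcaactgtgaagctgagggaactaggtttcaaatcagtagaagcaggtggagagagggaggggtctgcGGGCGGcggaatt
Rtn1, chr12:72236678-72236977, minus strand: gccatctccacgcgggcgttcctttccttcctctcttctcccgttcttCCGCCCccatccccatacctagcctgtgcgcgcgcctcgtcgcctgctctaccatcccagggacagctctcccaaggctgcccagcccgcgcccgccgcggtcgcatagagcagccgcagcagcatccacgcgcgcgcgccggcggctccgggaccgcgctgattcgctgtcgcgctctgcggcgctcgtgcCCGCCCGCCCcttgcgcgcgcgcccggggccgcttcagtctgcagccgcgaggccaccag
Elavl3, chr9:22051974-22052273, minus strand: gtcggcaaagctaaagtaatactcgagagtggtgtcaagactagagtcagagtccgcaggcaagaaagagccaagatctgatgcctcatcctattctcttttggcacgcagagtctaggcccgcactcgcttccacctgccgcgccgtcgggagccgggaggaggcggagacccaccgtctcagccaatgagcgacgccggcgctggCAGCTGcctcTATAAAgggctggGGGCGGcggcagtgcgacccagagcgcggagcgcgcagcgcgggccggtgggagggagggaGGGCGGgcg
Tubb3, chr8:123411303-123411602, plus strand: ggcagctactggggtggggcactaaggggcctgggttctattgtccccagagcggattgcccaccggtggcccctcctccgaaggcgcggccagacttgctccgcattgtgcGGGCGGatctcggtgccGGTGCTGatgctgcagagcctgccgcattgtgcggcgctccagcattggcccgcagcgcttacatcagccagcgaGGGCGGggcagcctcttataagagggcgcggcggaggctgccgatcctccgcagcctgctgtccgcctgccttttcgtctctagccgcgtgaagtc
The Gpm6a promoter is the first of its 2 starts and holds 1 match of the RE1 letters and 1 GC box. The Rtn1 promoter is the most GC-rich of 3, at 73.3% with 3 GC boxes. Elavl3 holds 1 E-box, 1 TATAAA and 2 GC boxes within its window. Tubb3 holds 1 match of the RE1 letters and 2 GC boxes. Of the 13 promoters of these 6 genes, the printed ones of Gpm6a and Tubb3 hold the RE1 letters, while the second Gpm6a promoter and those of Rtn1, Elavl3, Elavl4 and Dcx do not. A match is a description of letters and was not tied to binding in these samples.

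Related genes were read from lists of known roles, where 8.22% of all genes were called lower and 6.79% higher, with a median difference of -0.01. Of 22 measured family relatives, 8 were called lower in the lines and 1 higher, with a median of -0.42. Dclk2 and Dclk1, doublecortin-like kinases, differed by -2.15 and -1.81, the tubulins Tubb2b and Tubb4a by -2.03 and -1.50, and Rtn4, the reticulon known as Nogo, by 0.49 the other way. Of 23 other cytoskeleton and growth cone genes, 9 were called lower and 1 higher, with a median of only -0.16. Kif1a, an axonal transport motor, differed by -2.60, Crmp1 by -2.31, Tagln3 by -2.20 and Mapt, which encodes tau, by -1.61. Map1b, a microtubule-associated protein of growing axons, was higher by 0.83 ± 0.24 (adjusted p = 0.0314). These 10 calls among the growth cone genes became 5 when either NSC array was left out.

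Of 14 neurogenic transcription factors, 3 were called lower and 0 higher, with Prox1 at -2.62, Myt1 at -2.26 and Insm1 at -0.53. Their median difference was only -0.12, against -0.01 over all genes, of which 8.22% were called lower. Of 14 genes of mature neurons and synapses, 4 were called lower and 0 higher, led by the calcium-dependent kinase subunit Camk2b at -3.24 and the synaptic fusion protein Snap25 at -1.12, and 2 of the 14 were called without NSC replicate 1. Over those 14 mature neuron genes the median difference was -0.39. Rest, the repressor of neuronal genes in other cells, averaged 9.57 in the lines and 9.01 in the NSCs, a difference of 0.56 ± 0.16 (adjusted p = 0.0305). Among its partners Ehmt2 was called higher (0.30) and Rcor2 lower (-0.62), while Rcor1 (0.09), Sin3a (0.00), Hdac1 (0.19), Hdac2 (-0.02) and Kdm1a (-0.15) were not called. None of the 8 genes of REST and its corepressors was called by limma with either NSC array left out. Other neural markers were also called lower in the lines, like 8 of the 10 genes. These were 5 of 8 markers of neural stem cells and radial glia and 4 of 7 oligodendrocyte lineage markers. Of the astrocyte markers, 5 of 7 were called lower and 1 higher. Schwann cell markers had 2 of 6 called lower, and neuroendocrine markers 2 of 7 lower and 1 higher. Fibroblast markers went the other way, with 2 of 7 called higher and a median difference of 1.34. The part of these cell types in the differences was not tested. All 8 stem cell and radial glia markers were above the bound in both NSC cultures, and 3 of the 8 were so in all 10 lines.

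The second comparison asked whether p53 status divides the lines. For none of the 10 genes did the 6 p53 mutant lines lie apart from the 4 WT lines, where 1.69% of all genes did not overlap. By limma, 0 of the 10 were called, where 0.0201% of all genes were. An unadjusted p under 0.05 was reached by 0 of the 10 and by 1701 of all 19937 genes. The means of Stmn2 were 8.43 in mutant and 8.37 in WT lines, a difference of 0.05 ± 1.26 (adjusted p = 0.995), with both p53 classes holding lines at high and at low levels. Tubb3 averaged 8.33 in mutant and 8.89 in WT lines, a difference of -0.55 ± 0.41 (adjusted p = 0.782). For Gpm6a, where the lines are close together, the difference was -0.01 ± 0.11.

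The third comparison was of the 12 tumors with SubQ, 3 samples. Gap43 was higher in tumors, 4 genes (Dcx, Elavl3, Elavl4 and Gpm6a) were lower, and Stmn2, Tubb3, Nefl, Nefm and Rtn1 did not pass the test. These 5 calls of 10 stand against 76.5% of all genes called (30.7% higher, 45.8% lower), so the share of the 10 genes called was not above that of all genes. The 4 lower genes were also the only ones of the 10 whose groups did not overlap, where 30.6% of all genes lay wholly lower. The receptor genes behind the bound had a median difference of -1.24, and 1136 of 1194 were called lower in tumors. The median over all genes was -0.28 as deposited, -0.14 with each array centred on its median and -0.11 after quantile normalization.

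**Figure D2:**
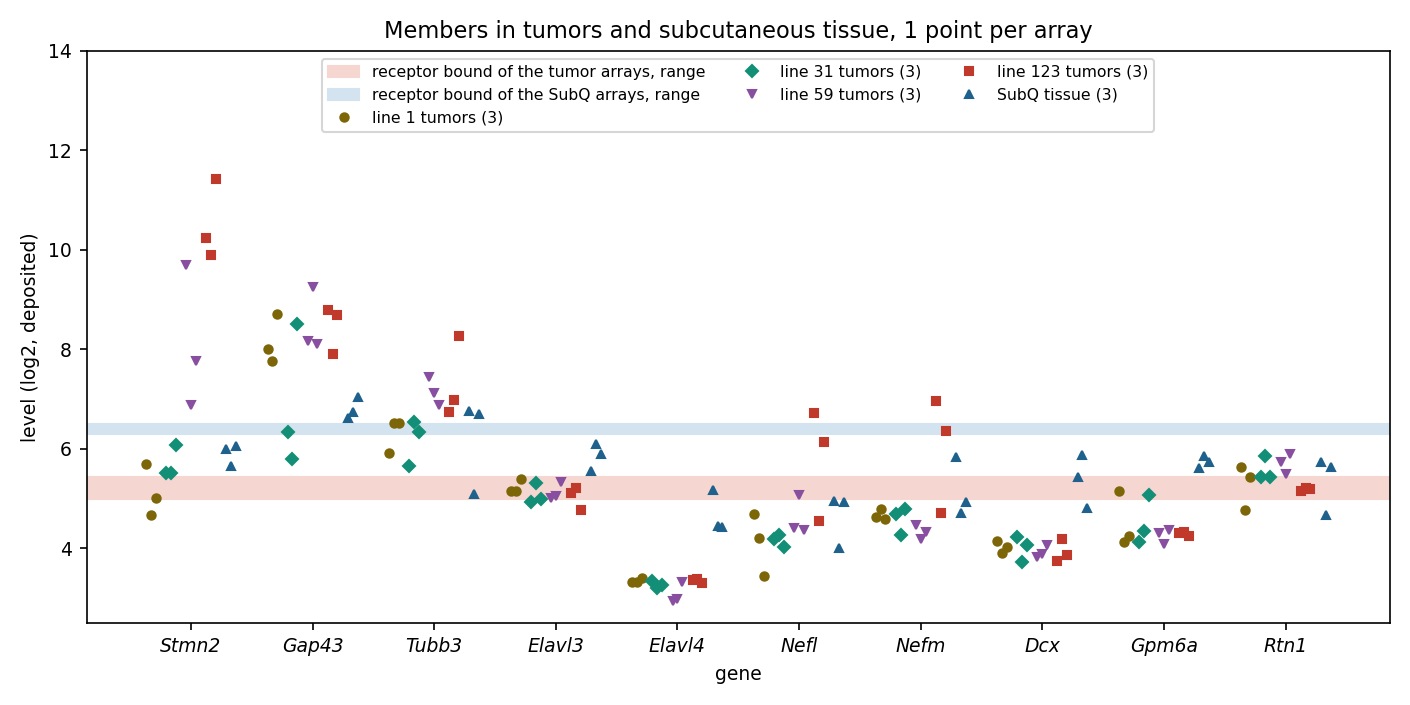
Levels (log2, vertical axis) of the 10 genes on each tissue array, with tumors of lines 1, 31, 59 and 123 and SubQ from left to right within a gene; bands give the range of the receptor bound on tumor and on SubQ arrays. Stmn2 runs over the tumors from 4.66 to 11.42, and Nefl and Nefm stand out only in 2 of the 3 line 123 tumors.

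Gap43 ranged over the tumors from 5.798 to 9.25, with a median of 8.14, and was 6.63, 6.73 and 7.04 in SubQ. Line 31 replicates 1 and 2, at 6.33 and 5.798, were below all SubQ samples, and the other 10 tumors were above them. The difference was 1.20 ± 0.53 (adjusted p = 0.0466), close to the threshold. It was 0.13 after quantile normalization (adjusted p = 0.829) and 1.20 with line as a random block (adjusted p = 0.0766). Of 27 alternatives 7 called it, with adjusted p from 0.00012 to 0.829, and leaving out any 1 SubQ sample ended the call (1.12, 1.17 and 1.32, with adjusted p of 0.134, 0.116 and 0.0754). Leaving out 1 tumor ended it for each tumor but line 31 replicates 1 and 2, with adjusted p from 0.0502 to 0.0641.

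The 4 genes called lower were not shown above background in SubQ, and in tumors only Elavl3 passed the bound, in 4 of 12. Dcx was 3.72 to 4.23 in tumors and 5.43, 5.87 and 4.80 in SubQ, a difference of -1.39 ± 0.17. Elavl4 was 2.93 to 3.39 in tumors and 5.17, 4.44 and 4.42 in SubQ, a difference of -1.42 ± 0.15. In tumors Gpm6a was 4.08 to 5.15 and in SubQ it was 5.62, 5.86 and 5.72, a difference of -1.35 ± 0.20. These 3 differences are of the size of the receptor genes' own median difference, and levels at or under the bound in both groups give no fold. Elavl3 differed by -0.73 ± 0.14. After quantile normalization Elavl4 differed by -0.38 and was not called (adjusted p = 0.0871), while adjusted p over its 26 alternatives ranged from 1.80e-07 to 0.0871.

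The same lists were read in tumors against SubQ, where 76.5% of all genes were called (30.7% higher, 45.8% lower), so their counts are descriptions only. The direction of a call moved with a gene's level: of the 9968 genes above the median level, 5907 were called higher and 1246 lower. Of the 22 family relatives 12 were called higher and 7 lower, led by the tubulins Tuba1a (3.70) and Tubb5 (3.50), the intermediate filament gene Vim (3.08) and Elavl1, the widely expressed Hu gene (2.81). Of the 23 growth cone genes 7 were called higher, among them Map1b (2.49) and the adhesion molecule Ncam1 (1.97), and 7 lower. Of the 14 neurogenic factors 10 were called lower and 1 higher, and of 14 mature neuron genes 7 lower and 1 higher. In SubQ, 9 of the 14 neurogenic factors and 11 of the 14 mature neuron genes were above the bound in no array. Of 8 genes of REST and its corepressors, all above the bound in every tumor, 7 were called higher, Rest by 2.32. Cell type markers differed as well, in both directions. In tumors 6 of 7 skeletal muscle, 6 of 6 adipocyte and 3 of 6 keratinocyte markers were called lower. Of the fibroblast markers 5 of 7 were called higher, and of the macrophage markers 6 of 7. Their part was not tested.

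Rtn1, Nefl, Nefm, Tubb3 and Stmn2 overlapped between tumors and SubQ. Rtn1 was 4.76 to 5.90 in tumors and 5.73, 4.67 and 5.63 in SubQ, with a difference of 0.09 ± 0.23 (adjusted p = 0.726). Tubb3 was 5.65 to 8.26 in tumors, all above their bound, and 6.75, 5.09 and 6.69 in SubQ, with a difference of 0.56 ± 0.42 (adjusted p = 0.227). Stmn2 differed by 1.46 ± 1.21 (adjusted p = 0.281), with a standard deviation of 2.36 over the tumors. Rtn1, Stmn2, Nefl and Nefm were above the bound in 0 of 3 SubQ samples, so their SubQ levels were not shown above background. Among the 12 tumors, Stmn2 was above it in 10, Rtn1 in 8, and Nefl and Nefm in 2 each. Nefm differed by -0.26 ± 0.47. With the line 123 tumors left out its difference was -0.64, and it was then called (adjusted p = 0.0154, in a range of 0.0154 to 0.913 over 26 alternatives). Those values are averages over lines that differ, as the following comparison shows.

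**Figure D3:**
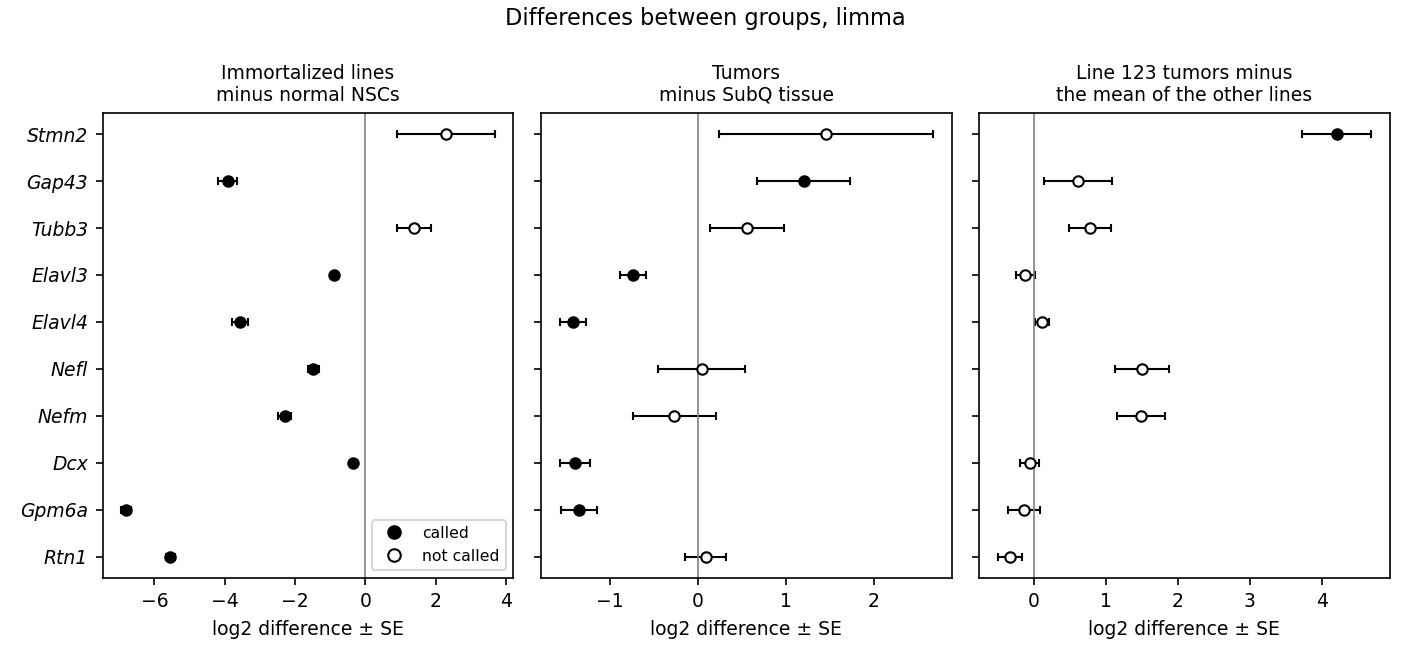
Differences in log2 level with standard errors from limma for 3 comparisons, immortalized lines minus NSCs, tumors minus SubQ, and line 123 tumors minus the mean of the other 3 lines; filled points were called at an adjusted p under 0.05. The first panel holds 8 filled points below 0, and in the last panel only Stmn2, at 4.20, is filled.

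The fourth comparison was between the tumor lines. Stmn2 separated the lines, and it was the only one of the 10 genes that passed the F test over the 4 lines (adjusted p = 0.000718), where 5.07% of all genes did. The nearest others were Nefm (adjusted p = 0.0782), Nefl (0.105), Tubb3 (0.127) and Gap43 (0.238). Stmn2 was 10.23, 9.90 and 11.42 in line 123 tumors, 9.70, 6.89 and 7.76 in line 59 tumors, 5.51, 5.51 and 6.07 in line 31 tumors, and 5.70, 4.66 and 5.01 in line 1 tumors. Line 123 lay above every other tumor and line 59 above both remaining lines, while the ranges of lines 31 and 1 overlapped. In line 1, only 1 of 3 tumors had Stmn2 above the bound.

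Set against the mean of the other lines, Stmn2 in line 123 tumors was higher by 4.20 ± 0.48 (adjusted p = 0.00116). With the 2 line 1 tumors not above the bound set at it, it was at least 17.3-fold higher. Of all genes, 0.848% were called in line 123 tumors and 0.627% called higher. Those 169 calls became 44 without line 123 replicate 3, 76 without line 123 replicate 2, 110 without line 1 replicate 3 and 278 without line 31 replicate 3. Only 1.27% of all genes had line 123 wholly above the other tumors, as Stmn2 did. Stmn2 kept a call in all 20 alternatives, with values of 3.75 to 4.51. In line 1 tumors the difference was -2.98 ± 0.48 (adjusted p = 0.00455), at least 6.56-fold lower with those 2 tumors at the bound, where 2.29% of genes were called lower. In line 31 tumors it was -2.22 ± 0.48 (adjusted p = 0.0445), where 0.762% were called lower, and this call held in 10 of 20 alternatives, with adjusted p from 0.0196 to 0.258. It was lost with line 1 tumor 2 or 3, line 31 tumor 1 or 2, line 59 tumor 3 or any line 123 tumor left out (adjusted p from 0.0520 to 0.258). In line 59 tumors it was 1.00 ± 0.48 and was not called (adjusted p = 0.414), where 1.17% of all genes were.

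The neurofilament subunits were high in part of the line 123 tumors. Nefm was 6.96, 4.71 and 6.36 in line 123 replicates 1, 2 and 3, and 4.18 to 4.80 in the other 9 tumors. Nefl was 6.71, 4.54 and 6.14 in the same tumors, and 3.44 to 5.08 in the other 9. Replicates 1 and 3 were above the bound for both subunits, and replicate 2 was within the range of the other lines for both. The differences of line 123 from the other lines were 1.49 ± 0.34 for Nefm (adjusted p = 0.0683) and 1.502 ± 0.37 for Nefl (adjusted p = 0.0886), neither called. Without replicate 2 of line 123 they were 2.14 for Nefm (adjusted p = 0.000468) and 2.13 for Nefl (adjusted p = 0.00911), the only call of each in 19 alternatives, over which adjusted p reached 0.358 and 0.422.

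Nefl and Nefm are next to each other on chromosome 14. The genes on either side of the pair, chosen after their values were seen, did not pass the test in line 123 tumors: Dock5 differed by -0.32 (adjusted p = 0.480) and Adam7 by -0.20 (adjusted p = 0.690). Next to Stmn2 on chromosome 3, Il7 differed by 0.02 and Hey1 by -0.28. Tubb3 was 6.75, 6.98 and 8.26 in line 123 tumors and 5.65 to 7.44 in the other 9, a difference of 0.78 ± 0.29 (adjusted p = 0.274). Its highest value was in line 123 replicate 3, the tumor with the highest Stmn2.

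Of the 23 other cytoskeleton and growth cone genes, 1 was called in line 123 tumors, Map1b at 9.39 in line 123 tumors and 8.36 in the others, higher by 1.03 ± 0.20 (adjusted p = 0.0335), with the groups overlapping. None of the family relatives, neurogenic factors, REST partners or mature neuron genes was called there. Markers of peripheral neurons, which a subcutaneous sample could hold, averaged 4.48, 4.69 and 4.64 in line 123 replicates 1, 2 and 3. Over all tumors these averages ran from 4.25 to 4.69. Of the 9 measured, 7 were above the bound in no tumor, and 2 were above it in all 3 line 123 tumors. In lines 1, 31 and 59, 1, 0 and 1 of the 9 were above it in all tumors of the line. Tumor by tumor, 2 of the 9 were above it in each line 123 tumor. The counts for replicates 1, 2 and 3 were 1, 2 and 2 in line 1, 2, 2 and 0 in line 31, and 2, 2 and 1 in line 59. Markers of skeletal muscle averaged 6.46, 7.996 and 7.22 in line 123 replicates 1, 2 and 3, with a median difference of 1.20 and 0 of 7 called. Those of Schwann cells averaged 5.87, 5.92 and 5.99 there. Over all tumors the muscle averages ran from 5.48 to 7.996 and the Schwann cell averages from 5.63 to 6.65. In line 59 tumors the muscle averages reached 7.43. Keratinocyte markers had a median difference of 1.67 in line 123 tumors, with 0 of 6 called. The part of nerve, muscle and skin in these values was not tested.

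Gap43 varied between tumors in another way. It was 6.33, 5.798 and 8.51 in line 31 tumors, against 7.76 to 9.25 in the other 9 tumors, so that 2 of 3 line 31 tumors were below all others. The difference of -1.49 ± 0.47 was not called (adjusted p = 0.155), and without replicate 3 of line 31 it was -2.31 and called (adjusted p = 0.00396). That was the only call in 20 alternatives, over which adjusted p reached 0.563. Elavl3, Elavl4, Dcx, Gpm6a and Rtn1 showed no difference between tumor lines that passed, with F test adjusted p above that of Gap43.

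Lines 31, 59 and 123 were measured both as tumors and in culture. With 1 culture array per line and levels that may come from 2 normalizations, this is a description by rank within the array, with no test. Of 30 pairs of gene and line, the 3 tumors all ranked above the culture in 14, all below it in 5 and on both sides in 11. Over all genes and the same 3 lines, the tumors all ranked above the culture in 29.5% of pairs and all below it in 41.4%. Of the 14 higher pairs, 4 (Nefl and Nefm in lines 31 and 59) were above the bound in neither tumors nor culture, and so were 3 of the 5 lower ones, those of Elavl4. Joint quantile normalization keeps the order of genes within an array, so its equal counts were fixed in advance and add no support. The deposited values would have given 1 higher and 23 lower. Stmn2 in line 123 lay between the 98.6th and 99.7th percentile of genes in tumors and at the 94.9th in culture. In line 59 its rank was 73.5 to 97.7 in tumors and 97.5 in culture, and in line 31 it was 43.8 to 61.0 in tumors and 32.3 in culture. Line 31 ranked lowest of the 3 lines in culture and in tumors, and the 3 tumors of line 59 were spread.

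**Figure D4:**
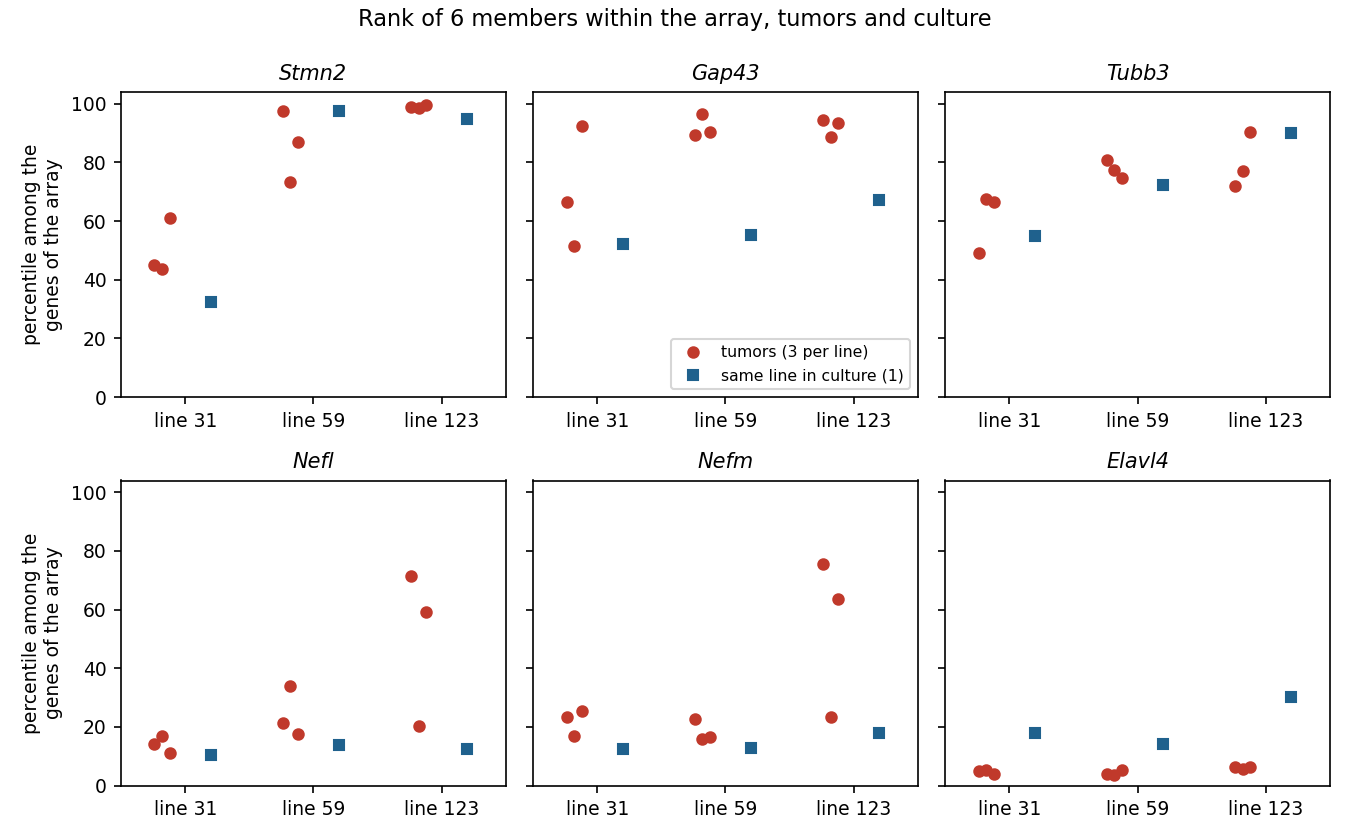
Percentile of 6 genes among all genes of the same array (vertical axis) for lines 31, 59 and 123, with the 3 tumors of a line (circles) left of its culture (square). Stmn2 is at 98.6 to 99.7 in line 123 tumors and 94.9 in culture, and Nefl and Nefm reach 71.4 and 75.4 in line 123 tumors and are at 12.5 and 18.1 in culture.

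Gap43 ranked higher in tumors than in culture in lines 123 (88.7 to 94.3 in tumors and 67.1 in culture) and 59 (89.3 to 96.6 in tumors and 55.3 in culture), and lay on both sides in line 31 (51.4 to 92.5 in tumors and 52.1 in culture). Nefl in line 123 ranked at 20.4 to 71.4 in tumors and 12.5 in culture, and Nefm at 23.5 to 75.4 in tumors and 18.1 in culture. The neurofilament pair was thus not shown above background in any line in culture, and among the tumors it was above it only in 2 of line 123. Tubb3 in line 123 ranked at 71.9 to 90.5 in tumors and 90.1 in culture. Elavl4 ranked lower in tumors of all 3 lines, at 3.75 to 6.29 in tumors and 14.1 to 30.3 in culture, with every value under the bound.

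As a description, levels of 8 of the 10 genes ran together over the 12 cell arrays, with a median Pearson r of 0.962 over 28 pairs, from 0.769 to 0.998 (Gpm6a with Rtn1). Stmn2 and Tubb3 ran the other way, with r of -0.61 to -0.14 in all 16 pairs with those 8 genes, and r of 0.42 with each other. These arrays may share normalization, and they share the gap between lines and NSCs. Within the 10 lines the median r was 0.327, and r for Gpm6a with Rtn1 was 0.63. There the same 16 pairs of Stmn2 or Tubb3 all had positive r, from 0.0058 (Tubb3 with Dcx) to 0.69 (Tubb3 with Nefm). The negative r over the cell arrays was thus not seen among the lines alone. However, Gpm6a, Rtn1, Elavl4, Nefl, Nefm and Dcx were above the bound in none of the 10 lines. Values of r with these genes within the lines therefore rest on levels not shown above background. Over the 12 tumor arrays the median r was -0.0665, and the highest were Nefl with Nefm (0.84), Stmn2 with Tubb3 (0.77) and Stmn2 with Nefl (0.72). Nefl and Nefm were each above the bound in only 2 of those 12 arrays. The genes most like the mean of the varying members were Ric3, Nxph1, Pygm, Car8 and Lrrtm3 over the cell arrays (r of 0.97 each, 2128 genes ranked). That mean held a different 8 genes, with Stmn2 and Tubb3 and without Elavl3 and Dcx. Over the tumors the most similar genes were Klra6, Gpd2, Nnat, Usp11 and C2 (r of 0.94, 0.94, 0.89, 0.89 and 0.86, 1733 genes ranked). The 5 members used there were Stmn2, Gap43, Nefl, Nefm and Tubb3.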

How the data were processed

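RNA of 27 mouse samples was hybridised to Affymetrix arrays, with 100 ng of total RNA per labelling, per the labels. The authors deposited log2 expression values for each probe set. Per the submitters' processing notes, RMA, GCOS and Affymetrix Expression Console were used, with no version or order stated. No genome build of the array annotation is given in the sources used here. Of 34760 probe sets, 21640 with 1 gene were used, and for 954 genes with several the probe set of highest mean over all arrays stood for the gene, giving 19937 genes.

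The deposited log2 values went into limma (version 3.58.1, R 4.3.3) for each comparison. P-values were 2-sided with Benjamini-Hochberg adjustment across the 19937 genes, with calls made below 0.05. The number of arrays limits the precision: NSCs had 2, and tumors of a line count as separate samples. The fit was tested on simulated data. The 10 genes and all gene lists were chosen with earlier results of these data known. The naming rule took all 10 genes, up to 4 called genes per list with the largest change, every gene of the REST list, and the 5 genes most correlated with the members' standardized mean (SD of at least 0.5). Rtn4 and, in the lines, Map1b were named outside it after their values were seen. Alternatives were other probe set summaries, filters, variance models, scalings, a 2-fold threshold, subsets of lines, arrays left out and blocks. Python 3.11.15 and pandas 2.3.3 did the rest.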

Additional observations from a re-analysis of the deposited data

Results flagged for a closer look

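In 30 groups of 4 to 10 arrays, 2 values lay further from their nearest neighbour than Dixon's 95% limit. Chance alone puts a value beyond that limit in about 1 of 20 groups tested. Elavl4 in line 123 culture was 6.48, with the next line at 5.79, both under the receptor bound. Rtn1 in line 59 culture was 6.25 among the p53 mutant lines, with the next at 5.92, also both under the bound.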

How the results depend on the processing

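Calls among the 10 genes in lines against NSCs numbered 7 to 9 with 1 array left out, and 1 with only genes above the median level, which kept 3 of the 10. The numbers of calls in tumors against SubQ were 4 to 5 with 1 array left out, 0 with that filter (3 of the 10 tested) and 3 after quantile normalization. For line 31 tumors, 0 genes were called with trend and robust variance and 0 with centred arrays, and 0 to 2 with 1 tumor left out. With 1 tumor left out, the count was 0 to 1 for line 59, 1 to 3 for line 123 and 1 to 3 in the F test, with the highest count of each without line 123 tumor 2. The p53 comparison gave 0 throughout. Deposited values gave 1 pair of gene and line higher in tumors than in culture. Stmn2 in p53 mutant minus WT lines ran from -0.66 to 0.79 with 1 line left out (-0.0472, -0.32, -0.49, -0.54 and -0.66 without lines 3, 331, 59, 95 and 119). In tumors minus SubQ, Nefm turned to 0.36 after quantile normalization and 0.0726 without SubQ replicate 1, and ran from -0.49 to 0.0726 with 1 array left out. Nefl ran from -0.27 to 0.21, turning to -0.27 without SubQ replicate 2, -0.140 and -0.0882 without line 123 tumor 1 or 3, and -0.33 without all line 123 tumors. Rtn1 ran from -0.25, without SubQ replicate 2, to 0.28. The cause was not tested. With the replicate number as a block, Dcx in lines minus NSCs was -0.44 (adjusted p = 0.0852) and Tubb3 1.31 (adjusted p = 0.0428), and no other call among the 10 genes changed. Same-numbered samples deviated with r from -0.28 to 0.34 in tissue and 0.04 and 0.08 in cells, so the numbers were not taken as pairs. With 1 array left out in lines minus NSCs, calls numbered 6 to 10 among family relatives, 5 to 11 among growth cone genes, 2 to 4 among neurogenic factors, 2 to 6 among mature neuron genes and 0 to 3 among REST and its corepressors. Levels near the receptor bound limit 166 of 270 values.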
